A study of Homo sapiens with 6 samples.

Results

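To follow the response of kidney tubule cells as cisplatin exposure was prolonged, arrays from cells treated for 24 h were compared with arrays from cells treated for 6 h. These were 4 of the 6 arrays of the series, chosen by their treatment time alone. The cells were HK-2, an immortalised line of human proximal tubule cells. The 24 h group consisted of 2 arrays from cells given 50 μM cisplatin for 24 h, and the 6 h group of 2 arrays from cells given the same dose for 6 h. The other 2 arrays came from control cells, for which the labels give no time, and they entered only the estimate of the spread. Since no untreated cells were matched to either time, longer cisplatin exposure and longer time in culture cannot be told apart. Replicates are labelled biological without further detail on the cultures, so that a p-value here covers the spread among these arrays, which may be in part technical. HK-2 is a single line, and no other line or donor was compared.

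Cisplatin is a platinum drug whose adducts crosslink neighbouring bases of DNA, block replication and stall RNA polymerase II on the transcribed strand. The proximal tubule takes up the drug from the blood, and injury to these cells limits its clinical use. Cells that meet such damage arrest the cell cycle, excise adducts by nucleotide excision repair, and die by apoptosis or necrosis when the damage is not removed.

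RNA was hybridized to single-colour Human Genome U219 arrays, and the deposited values are log2 signals in which every array was set to a common distribution. A difference of 1 is therefore a 2-fold change against the rest of the same array, and not a change in RNA per cell. For each of 18239 genes, the probe set that was brightest on average across the 6 arrays was used. The correlation across genes was 0.997 between the 24 h replicates and 0.998 between the 6 h replicates, while 24 h arrays correlated with 6 h arrays at 0.984 to 0.985. The median absolute difference between replicates was 0.107 at 24 h and 0.0827 at 6 h. Several sets of control probe sets were brighter at 24 h than at 6 h. The 9 hybridization spike-in probe sets averaged 9.81 at 24 h and 9.49 at 6 h, and the 12 poly-A spike-in probe sets 5.42 at 24 h and 4.75 at 6 h. Nonspecific probes rich in G and C (GC class 22 to 25) averaged 5.94 at 24 h and 5.10 at 6 h. The 3′ minus 5′ log2 signal of the beta-actin control was 1.97 and 2.83 at 24 h, against 2.02 and 1.53 at 6 h. That of the GAPDH control was 0.3 and 0.39 at 24 h, against 0.25 and 0.25 at 6 h. The part of these shifts in the differences of genes was not tested. When the arrays were scaled to the hybridization spike-ins, the median difference of all genes was −0.25, and with the poly-A spike-ins it was −0.60, against 0.07 as deposited. Thus a gene that rose by less than 0.67 is lower at 24 h after poly-A scaling, and all directions given here are relative to the array unless a scaling is named. Of 5 epithelial markers, 4 reached a log2 signal of 5 in at least 2 of the treated arrays, against 3 of 13 measured proximal tubule markers (DPP4, PAX8 and CDH6). The same held for 2 of 10 endothelial, 3 of 10 fibroblast and pericyte, 1 of 9 immune, and 1 of 8 distal nephron and podocyte markers.

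Many genes differed between the times, most of them by less than 2-fold. Of 18239 genes, 3858 were higher (21.2%) and 3048 were lower (16.7%) at 24 h than at 6 h, at an adjusted p under 0.05 in limma. That is 6906 genes or 37.9%, and 8542 genes had an unadjusted p under 0.05. Counts in the gene groups below are to be read beside the 21.2% and 16.7% of all genes. Among the genes that passed, the median absolute difference was 0.477 and the smallest 0.222. At least 2-fold changes were less frequent, with 244 genes higher (1.34%) and 370 lower (2.03%). The 2-fold limit lay between CENPBD1P (1.001) and SNORA78 (0.998) among the rises, and between PRPF39 (−1.001) and CDK6 (−0.997) among the falls. The order of the counts depended on the processing. Without dim genes 3061 were higher and 3195 lower by the test, and with probe sets averaged per gene 159 were at least 2-fold higher and 135 at least 2-fold lower. With poly-A scaling the counts became 196 higher and 14338 lower, and with hybridization scaling 1030 higher and 8036 lower.

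**Figure D1:**
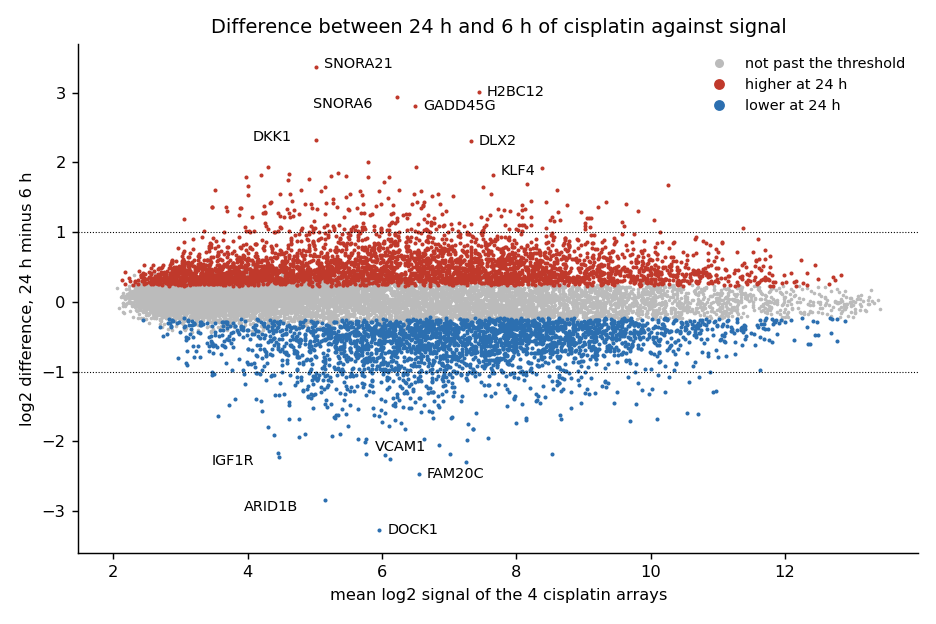
Difference between 24 h and 6 h (log2, vertical axis) against the mean log2 signal of the 4 cisplatin arrays (horizontal axis), with 1 point per gene and dotted lines at 2-fold. The rises reach 3.37 (SNORA21) and the falls −3.27 (DOCK1), and most genes past the threshold lie inside the dotted lines.

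Large rises were led by small nucleolar RNAs, a histone, growth-arrest genes and transcription factors. SNORA21, a box H/ACA small nucleolar RNA that guides pseudouridylation, had log2 signals of 6.42 and 7.0 at 24 h, against 3.34 and 3.34 at 6 h. The difference was 3.37 (standard error 0.16, adjusted p = 1.34e-05). Its 6 h signals lay under the log2 signal of 5 used here as the limit for dim genes, so that no fold is given, and the 24 h replicates lay further apart than those of most genes. GADD45G, a growth arrest and DNA damage-inducible gene, was at 7.90 and 7.93 at 24 h and at 4.97 and 5.23 at 6 h, a difference of 2.81 (standard error 0.10, adjusted p = 8.20e-06). DKK1, which encodes a secreted inhibitor of Wnt signalling, was at 6.18 and 6.18 at 24 h, against 3.88 and 3.85 at 6 h. Its control arrays were at 4.65 and 4.63, so that DKK1 lay below control at 6 h and above it at 24 h. The homeobox gene DLX2 was at 8.46 and 8.50 at 24 h, against 6.15 and 6.19 at 6 h (difference 2.31, adjusted p = 2.28e-05). Its control arrays were at 3.17 and 2.74, and the 2 dimmer probe sets of DLX2 had differences of 0.16 and 0.15 that did not pass. KLF4, a zinc-finger transcription factor, rose by 1.82 (standard error 0.08, adjusted p = 1.30e-05) with both of its probe sets in the same direction. Further rises of this size were found for RASD1, a Ras-related GTPase (1.93), for TBCC, a cofactor of tubulin folding (1.92), for HCST, the adaptor of the NKG2D receptor (1.94), and for the protocadherin genes PCDH17 (1.85) and PCDH9 (1.79). In each of these genes the arrays of the 2 times did not overlap, which was also the case for 12709 of the 18239 genes.

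Large falls were found in genes of cytoskeletal signalling, chromatin, growth factor signalling and adhesion. DOCK1, which encodes an exchange factor for the GTPase Rac, was at 4.2 and 4.46 at 24 h, against 7.61 and 7.58 at 6 h. The difference was −3.27 (standard error 0.10, adjusted p = 5.58e-06), with dim signals at 24 h, and the dim second probe set was at −0.28 without passing. DOCK1 was at 8.14 and 8.06 in control cells, so that most of its decrease lay between the 2 treatment times. ARID1B, a subunit of the SWI/SNF chromatin remodelling complex, was at 3.45 and 4.0 at 24 h and at 6.64 and 6.51 at 6 h, a difference of −2.85 (standard error 0.16, adjusted p = 2.28e-05). IGF1R, the receptor for insulin-like growth factor 1, was at 3.19 and 3.53 at 24 h and at 5.62 and 5.56 at 6 h. The difference was −2.23 (standard error 0.13, adjusted p = 2.28e-05), and 4 of the 7 probe sets of IGF1R went the same way. PTPRK, a receptor-type tyrosine phosphatase, fell by 2.18, with the same sign in 3 of its 5 probe sets, the others being dim. STAG1, a subunit of cohesin, fell by 2.05 over 3 probe sets of the same sign. HPGD, the enzyme that inactivates prostaglandins, fell by 2.02 with all of its 8 probe sets in the same direction. The adhesion molecule gene VCAM1 was at 4.75 and 4.82 at 24 h, against 6.85 and 6.65 at 6 h, and at 8.80 and 8.82 in control cells. Other falls of this size included FAM20C, a kinase of secreted proteins (−2.47), UBASH3B, a tyrosine phosphatase (−2.30), INPP5A, an inositol phosphatase (−2.26), SLCO4C1, an organic anion transporter of the kidney (−2.19), UBE2E2, a ubiquitin-conjugating enzyme (−2.18), and PCCA, a mitochondrial carboxylase subunit (−1.95). The other probe set of SLCO4C1 was dim and at 0.20.

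**Figure D2:**
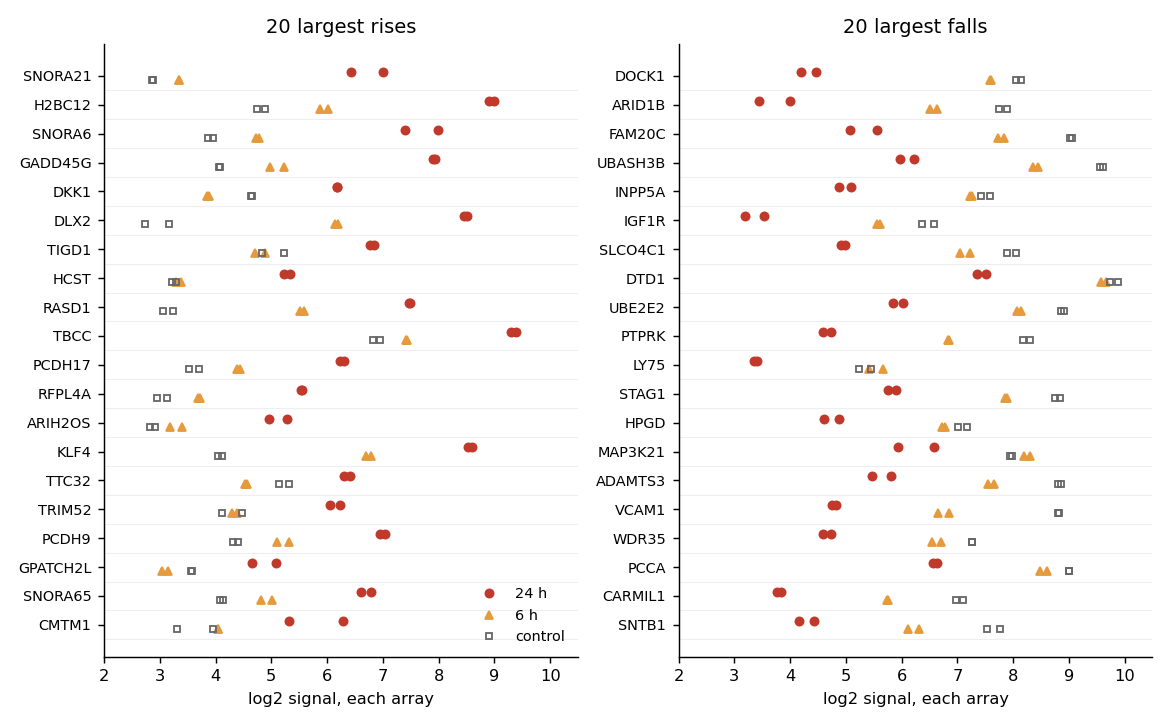
Log2 signal of each array (horizontal axis) for the 20 largest rises and the 20 largest falls between the times, with 24 h arrays as circles, 6 h arrays as triangles and control arrays as open squares. The 24 h arrays do not overlap the 6 h arrays in any of these genes, and SNORA21, SNORA6 and CMTM1 show wide gaps between 24 h replicates.

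As deposited, the probe sets of small nucleolar RNAs were higher at 24 h as a class. These RNAs guide chemical modification of ribosomal and spliceosomal RNA, and in vertebrates most are cut from introns of other genes. The class was singled out after its values were seen. Of 60 measured genes, 39 were higher (65.0%) and 2 lower, 16 of them at least 2-fold higher, and the median difference was 0.49, against 21.2% and 0.07 over all genes. The median was 0.18 with hybridization scaling and −0.18 with poly-A scaling, with which 13 were higher and 21 lower. Most of the class was dim, and when genes that did not reach a log2 signal of 5 in at least 2 of the 6 arrays were left out of the fit, 21 of the 60 remained, of which 20 were higher and 1 lower. Of the 48 box H/ACA genes (SNORA), 33 were higher and 1 lower, and of the 12 box C/D genes (SNORD), 6 were higher and 1 lower. SNORA6 was at 7.40 and 7.98 at 24 h, against 4.73 and 4.78 at 6 h, and SNORA65 at 6.79 and 6.6 at 24 h, against 4.81 and 5.01 at 6 h. For 55 of the 60 genes the annotation placed the small nucleolar RNA inside exactly 1 measured host gene, and these were 47 different hosts. Among the hosts, 8 were higher, 20 lower and 19 did not pass, with a median of −0.15. In 47 of the 55 cases the small nucleolar RNA had the larger signed difference, by a median of 0.75. RPL23, the ribosomal protein gene that hosts SNORA21, was at 12.30 and 12.32 at 24 h and at 12.46 and 12.44 at 6 h (adjusted p = 0.191). For RPL12, the host of SNORA65, the difference was 0.10 (adjusted p = 0.319). SNORA14B lies in TOMM20, the receptor gene of the outer mitochondrial membrane, and was at 1.02 (adjusted p = 6.49e-05) while TOMM20 was at −1.04 (adjusted p = 5.39e-05). Similarly, SNORA23 was at 1.44 while its host, the importin gene IPO7, was at −0.69 (adjusted p = 0.000325). These 4 pairs were chosen after their values were seen, the strand was not considered in the match, and a probe set of such an RNA may also detect the unspliced transcript of its host. Whether the signal came from the mature RNA was not tested.

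**Figure D3:**
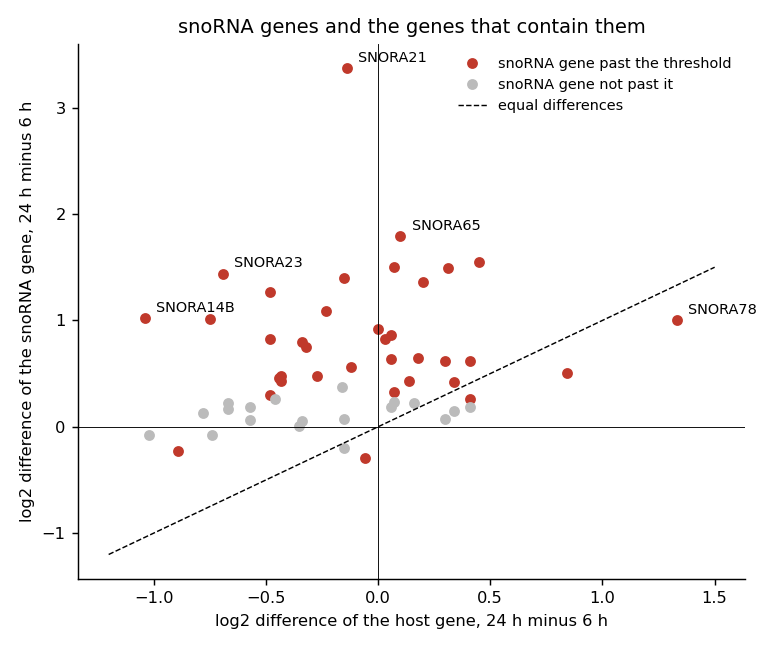
Log2 difference between 24 h and 6 h of 55 small nucleolar RNA genes (vertical axis) against that of the gene that contains each of them (horizontal axis), with a dashed line where the 2 are equal. Of the 55 points, 47 lie above the line.

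As deposited, replication-dependent histone genes were also higher at 24 h. They supply the histones that package newly made DNA, and their transcripts normally end in a stem-loop in place of a poly(A) tail. Of 55 measured genes, 38 were higher and 1 lower, 14 of them at least 2-fold higher, with a median of 0.51 that became 0.20 with hybridization scaling and −0.16 with poly-A scaling. H2BC12 was at 8.90 and 8.99 at 24 h, against 6.01 and 5.87 at 6 h, a difference of 3.01 (standard error 0.09, adjusted p = 5.58e-06) and a fold of 8.03. The second probe set of H2BC12 was dim and at −0.00. H2BC8 was at 5.74 and 6.05 at 24 h and at 4.17 and 4.43 at 6 h, and H2BC5 at 7.34 and 7.44 at 24 h and at 5.88 and 5.72 at 6 h. Both of these rose in every probe set. The brightest member, H4C3, went the other way, at 11.86 and 11.87 at 24 h, against 12.43 and 12.41 at 6 h (difference −0.55, adjusted p = 0.000811). In the fit without dim genes 13 of the 55 remained, of which 10 were higher and 1 lower. Histone genes are near-identical copies, so that the values of single members are uncertain. Transcripts with and without a poly(A) tail were not told apart.

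Promoter sequences are shown for 3 histone genes that rose together, for HEXIM1, and for DOCK1 and IGF1R among the falls. Each line gives the 250 bases before the outermost annotated start (RefSeq, GRCh38.p14), 5′ to 3′ on the gene's strand, with capitals for TATAAA on that strand and for CCAAT, which reads ATTGG when it lies on the opposite strand. The regions are chr6:27146859-27147108 on the minus strand for H2BC12, chr6:26216689-26216938 on the minus strand for H2BC8, chr6:26157871-26158120 on the plus strand for H2BC5, chr17:45148225-45148474 on the plus strand for HEXIM1, chr10:126905178-126905427 on the plus strand for DOCK1 and chr15:98648289-98648538 on the plus strand for IGF1R.
H2BC12: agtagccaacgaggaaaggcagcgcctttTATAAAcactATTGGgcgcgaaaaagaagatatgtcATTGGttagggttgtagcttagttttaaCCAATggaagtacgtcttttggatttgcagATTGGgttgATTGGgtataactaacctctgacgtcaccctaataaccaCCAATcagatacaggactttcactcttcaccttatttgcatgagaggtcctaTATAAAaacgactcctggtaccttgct
H2BC8: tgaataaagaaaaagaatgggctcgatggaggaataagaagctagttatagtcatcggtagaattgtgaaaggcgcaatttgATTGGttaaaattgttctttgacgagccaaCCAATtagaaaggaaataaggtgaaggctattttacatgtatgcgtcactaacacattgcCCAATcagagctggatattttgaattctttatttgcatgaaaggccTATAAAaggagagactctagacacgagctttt
H2BC5: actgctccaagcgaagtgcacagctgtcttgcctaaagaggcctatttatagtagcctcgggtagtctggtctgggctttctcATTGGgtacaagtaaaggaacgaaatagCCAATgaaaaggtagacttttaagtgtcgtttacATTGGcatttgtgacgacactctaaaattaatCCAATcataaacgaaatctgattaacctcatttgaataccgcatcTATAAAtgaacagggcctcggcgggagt
HEXIM1: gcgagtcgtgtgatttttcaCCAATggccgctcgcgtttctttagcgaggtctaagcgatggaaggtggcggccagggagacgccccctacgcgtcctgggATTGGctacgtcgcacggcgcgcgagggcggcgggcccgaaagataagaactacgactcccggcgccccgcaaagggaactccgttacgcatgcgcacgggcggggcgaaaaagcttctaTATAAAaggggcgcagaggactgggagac
DOCK1: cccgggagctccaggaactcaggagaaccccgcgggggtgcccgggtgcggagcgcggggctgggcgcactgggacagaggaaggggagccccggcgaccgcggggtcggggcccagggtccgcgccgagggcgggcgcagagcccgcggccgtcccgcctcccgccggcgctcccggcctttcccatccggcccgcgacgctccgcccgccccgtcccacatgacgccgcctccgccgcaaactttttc
IGF1R: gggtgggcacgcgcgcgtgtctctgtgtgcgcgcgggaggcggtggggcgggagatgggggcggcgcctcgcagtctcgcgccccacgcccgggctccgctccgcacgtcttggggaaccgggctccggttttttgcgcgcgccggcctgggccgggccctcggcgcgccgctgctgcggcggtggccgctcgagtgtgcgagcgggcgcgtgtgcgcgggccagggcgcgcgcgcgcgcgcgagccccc
The 3 histone promoters hold 3 to 6 copies of CCAAT on either strand, and each has TATAAA close to the start, where a TATA box lies. Neither motif occurs in the windows of DOCK1 and IGF1R, of which 78.8% and 81.2% of the bases are G or C. The promoters shown are examples only. In the window of DKK1, another gene that rose, TATAAA occurs but CCAAT does not on either strand. Of 17397 measured protein-coding genes, 14185 (81.5%) had a promoter sequence. TATAAA on the gene's strand occurred in 21 of 183 promoters (11.5%) of the genes at least 2-fold higher, in 15 of 306 (4.90%) of those at least 2-fold lower and in 6.31% of all. CCAAT on either strand occurred in 50.8% of the promoters of the genes at least 2-fold higher, in 26.1% of those at least 2-fold lower and in 34.6% of all. With histone genes left out, 7.69% of the promoters of the 2-fold higher genes held TATAAA and 47.9% held CCAAT. The letters TTTGAA on either strand occurred in 33 of 183 (18%) of the promoters of the 2-fold higher genes, in 7.84% of those of the 2-fold lower genes and in 10.8% of all. The letters TGANTCA on either strand, which can overlap TTTGAA, occurred in 4.37% of the promoters of the 2-fold higher genes, in 5.23% of those of the 2-fold lower genes and in 4.95% of all. The median share of G and C was 62.8% in the 2-fold higher genes, 69.0% in the 2-fold lower genes and 62.8% over all. No test was made of these shares, and a match says only that the letters are present.

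Cell cycle genes divided by phase. Genes of the G2 and M phases, which drive chromosome condensation and segregation, were mostly higher as deposited but not with either spike-in scaling, whereas genes of the G1 and S phases, which license and carry out replication, were more often lower than higher. In the G2 and M phase group, 29 of 43 rose and 2 fell, with a median of 0.42 that became 0.10 with hybridization scaling (14 higher and 6 lower) and −0.25 with poly-A scaling (3 higher and 13 lower). CDC25C, the phosphatase that activates the mitotic kinase CDK1, was at 7.48 and 7.68 at 24 h, against 6.29 and 6.04 at 6 h (difference 1.41, adjusted p = 8.43e-05). CENPA, the histone of the centromere, was at 9.24 and 9.25 at 24 h and at 8.09 and 8.04 at 6 h, and all of its 4 probe sets rose. Its control arrays were at 9.76 and 9.65, above both treated groups. The proliferation marker MKI67 rose by 1.36 in its brightest probe set, but only 2 of its 6 probe sets went that way and 2 of the others passed the test as lower, at −0.31 and −0.41. The brightest gene of this group, the CDK-binding protein gene CKS2, was at 0.07 (adjusted p = 0.525). In the G1 and S phase group, 5 of 41 rose and 21 fell, with a median of −0.25. Here CCND2, a D-type cyclin, was at 9.19 and 9.34 at 24 h, against 10.27 and 10.27 at 6 h. Dimmer probe sets of CCND2 were at 0.05 and −0.34 without passing. Its partner kinase CDK6 was at 7.57 and 7.60 at 24 h, against 8.60 and 8.57 at 6 h. GINS2, a subunit of the replicative helicase, fell by 0.88. PCNA, the sliding clamp, fell by 0.29 (adjusted p = 0.0167), and this call was lost without 24 h replicate 2 (adjusted p = 0.0562) and without 6 h replicate 1 (0.0903) or 2 (0.0790). Of the 7 CDK inhibitor genes, 5 were higher and none lower, with a median of 0.38 that became −0.29 with poly-A scaling. CDKN2D was at 8.80 and 8.85 at 24 h, against 7.63 and 7.59 at 6 h. The p53-responsive inhibitor CDKN1A rose by 0.52 (adjusted p = 0.00142), which became 0.20 (adjusted p = 0.127) with hybridization scaling and −0.15 (adjusted p = 0.428) with poly-A scaling.

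**Figure D4:**
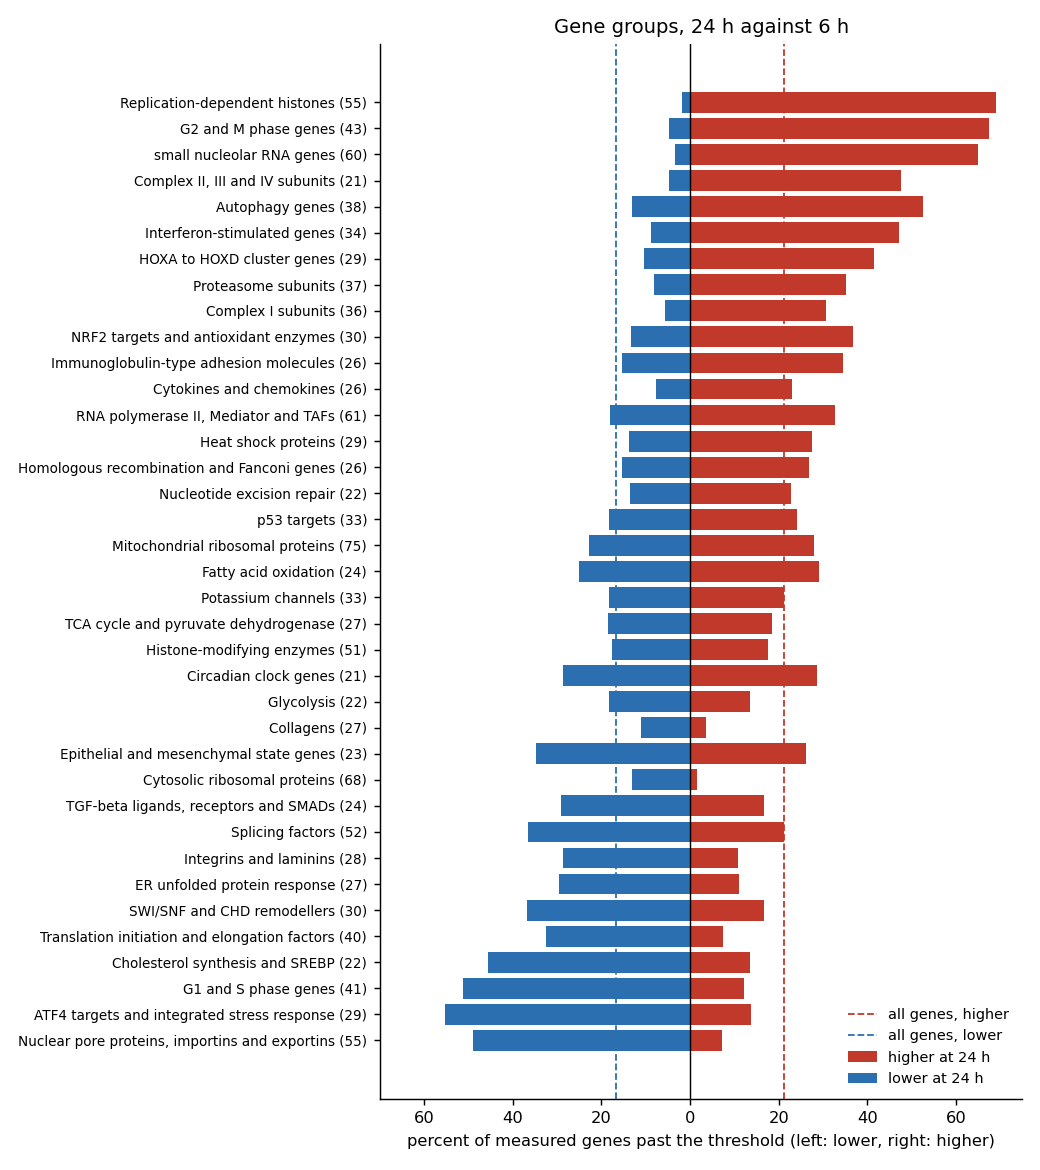
Percent of the measured genes of each group that were higher (bars to the right) or lower (bars to the left) at 24 h than at 6 h, for groups with at least 20 measured genes (number in brackets) and for small nucleolar RNA genes. Dashed lines mark the 21.2% higher and 16.7% lower of all genes, and histones, G2 and M phase genes and small nucleolar RNAs extend furthest to the right.

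Immediate-early and stress transcription factors were among the genes higher at 24 h. Of 10 EGR, NR4A and IER genes, which are switched on without new protein synthesis, 8 were higher and none lower, with a median of 0.74 (0.07 with poly-A scaling). The nuclear receptor gene NR4A3 was at 5.51 and 5.68 at 24 h, against 3.95 and 4.02 at 6 h, and NR4A2 at 6.79 and 6.74 at 24 h, against 5.68 and 5.59 at 6 h. IER5L rose by 1.29 in its brightest probe set and by 0.99 in another, while its remaining probe set passed as lower, at −0.72. IER3, the brightest of the group, was at 0.20 (adjusted p = 0.0712). Of the 13 AP-1 factors, 6 were higher and 1 lower, and the median of 0.22 became −0.10 with hybridization scaling and −0.45 with poly-A scaling. FOSB rose by 1.71, FOS by 1.39 and MAFG by 1.1. All 4 probe sets of FOS and of MAFG passed as higher, while the second probe set of FOSB was at 0.29 without passing. FOS was at 9.47 and 9.43 at 24 h, at 8.04 and 8.07 at 6 h, and at 5.00 and 5.49 in control cells. JUN, the brightest AP-1 gene, was at 0.09 (adjusted p = 0.399). Another probe set of JUN passed as higher, at 0.36, a further one was at 0.34 without passing, and the last passed as lower, at −0.49. FOSL1 fell by 0.34, a call that was lost without any 1 of the 4 treated arrays (adjusted p between 0.0541 and 0.112), and another of its probe sets passed as higher, at 0.33. All 3 GADD45 genes, whose products bind cell cycle and stress kinases, were higher, GADD45A by 0.90 (12.04 and 12.05 at 24 h, against 11.13 and 11.17 at 6 h) and GADD45B by 0.72. Among 29 HOX cluster genes, 12 were higher and 3 lower, with a median of 0.25 that became −0.07 with hybridization scaling, and HOXC6 (1.08) and HOXD9 (−0.63) were the largest in each direction. Of the 21 circadian clock genes, 6 were higher and 6 lower (28.6% each, against 21.2% and 16.7% of all genes). PER1, a repressor of the clock (1.34), and NR1D2, a nuclear receptor (−0.91), were the largest in each direction. The other probe sets of PER1 were dim and at −0.01 and 0.07 without passing.

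Transcription and chromatin genes showed large changes of single members in both directions. Of 61 genes of RNA polymerase II, Mediator and the TAFs, 20 were higher and 11 lower, with a median of 0.04. HEXIM1, which holds the elongation factor P-TEFb inactive, was at 11.16 and 11.03 at 24 h, against 9.38 and 9.46 at 6 h. Its difference was 1.67 (standard error 0.08, adjusted p = 1.53e-05), and all of its 5 probe sets rose. HEXIM1 was at 9.23 and 9.25 in control cells, close to the 6 h arrays. The Mediator subunit gene MED18 rose by 1.25 and the TFIID subunit gene TAF13 by 1.22, whereas MED27 fell by 0.88 and MED13 by 0.83, with another probe set of MED13 passing as higher, at 0.60. Of 30 SWI/SNF and CHD remodellers, 5 were higher and 11 lower, with a median of −0.17. Apart from ARID1B, the core subunit SMARCC1 fell by 0.95 and the ATPase SMARCA2 by 0.85, with 1 of the 8 probe sets of SMARCA2 passing as higher, at 0.30.

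Genes of nuclear transport, splicing and translation were more often lower than higher. Of 55 nuclear pore proteins, importins and exportins, 4 were higher and 27 lower, with a median of −0.23. SEH1L, a pore scaffold protein, was at 6.22 and 6.17 at 24 h, against 7.38 and 7.18 at 6 h. XPO4, an exportin, was at 4.93 and 4.83 at 24 h, against 5.91 and 5.92 at 6 h. Another probe set of XPO4 passed as lower, at −0.37, while those at 0.31, 0.09 and −0.13 did not pass. IPO13 rose by 0.61, which became −0.06 with poly-A scaling, and RAN, the GTPase that directs transport, was at −0.10 (adjusted p = 0.375). Of 52 splicing factors, 11 were higher and 19 lower, with a median of −0.11. TRA2B was at 10.40 and 10.27 at 24 h, against 11.62 and 11.61 at 6 h, and 8 of its 10 probe sets passed as lower, the others being at −0.25 and −0.10. SRSF2 fell by 1.26 in its brightest probe set, while its other probe sets were at −0.09 and 0.13 without passing. HNRNPA2B1 fell by 0.98 and HNRNPA1 by 0.48, with 1 of the 5 probe sets of HNRNPA1 passing as higher, at 0.55. In contrast, CLK1, a kinase of splicing factors, rose by 1.20 (9.71 and 9.64 at 24 h, against 8.47 and 8.47 at 6 h). Translation factors numbered 3 higher and 13 lower of 40, with EIF1AX, a factor of start site scanning, at 8.41 and 8.44 at 24 h and at 9.74 and 9.59 at 6 h. EIF3A fell by 0.75. Of 19 cytosolic aminoacyl-tRNA synthetases, which charge tRNAs, 2 were higher and 12 lower, with a median of −0.33. Their falls were small, with FARSB at −0.59, AARS1 at −0.58 and EPRS1 at −0.54. Cytosolic ribosomal protein genes moved little, since 58 of 68 did not pass, 1 was higher and 9 lower, and RPL3 fell by 0.46.

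Genes of the integrated stress response were mostly lower. Of 29 ATF4 targets and genes of the integrated stress response, which limits translation when proteins misfold or amino acids run short, 4 were higher and 16 lower, with a median of −0.31. Of the 29, 6 were at least 2-fold lower. GDF15, a secreted stress cytokine, was at 8.25 and 8.23 at 24 h, against 9.69 and 9.70 at 6 h (difference −1.45, adjusted p = 1.64e-05). TRIB3, a pseudokinase, fell by 1.40 and EIF2AK4, the kinase that senses uncharged tRNA, by 1.39, although the other, dim probe set of EIF2AK4 passed as higher, at 0.39. ATF4 itself was at −0.05 (adjusted p = 0.669), and PPP1R15A, the phosphatase subunit that restores translation, rose as deposited by 0.66, which became −0.01 with poly-A scaling. Of 27 genes of the unfolded protein response, 3 were higher and 8 lower, with the transcription factor genes XBP1 at −1.45 and ATF6 at −0.96. Heat shock genes were mixed, with 8 higher and 4 lower of 29. HSPA1L rose by 1.33. HSPA8, the constitutive member, fell by 0.57 (12.50 and 12.48 at 24 h, against 13.11 and 13.02 at 6 h), yet its probe sets disagreed, and of its other 6 probe sets 4 fell by 0.94 to 1.51 and 2 rose, 1 of them by 2.29.

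Mitochondrial and metabolic genes, the theme of the study, were divided between their groups. Of the 21 subunits of complexes II, III and IV of the respiratory chain, 10 were higher and 1 lower, with a median of 0.23 that became −0.08 with hybridization scaling and −0.44 with poly-A scaling. COX8A was at 11.85 and 11.87 at 24 h, against 11.29 and 11.26 at 6 h. For complex I, 11 of 36 subunits were higher and 2 lower, with NDUFA2 at 0.78, NDUFA6 at 0.74 and NDUFS4 at −0.87, and the median of 0.10 became −0.21 with hybridization scaling. A dim second probe set of NDUFS4 was at 0.35 without passing. Of 75 mitochondrial ribosomal proteins, 21 were higher and 17 lower, among them MRPL44 (0.89), MRPL1 (−1.07) and MRPS28 (−1.07). Of 14 genes of mitochondrial fusion and fission, 4 were higher and 5 lower. OPA1, required for fusion of the inner membrane, was at 7.11 and 7.19 at 24 h, against 8.12 and 8.20 at 6 h. The difference was −1.01 (standard error 0.08, adjusted p = 7.49e-05). Other probe sets of OPA1 passed as lower, at −0.89, −0.52 and −0.33. Another was at 7.26 and 7.12 at 24 h and at 7.10 and 7.15 at 6 h (0.07, without passing). The fission gene DNM1L fell by 0.41, and PINK1, a kinase that marks damaged mitochondria, rose by 0.97. Of 22 glycolytic genes, 3 were higher (13.6%) and 4 lower (18.2%), shares near the 21.2% and 16.7% of all genes. HK2, which encodes hexokinase 2, was at 6.42 and 6.34 at 24 h and at 7.45 and 7.43 at 6 h (difference −1.06, adjusted p = 9.89e-05), whereas a second and dimmer probe set gave 0.21 (adjusted p = 0.167 over all probe sets). LDHA fell by 0.61 and BPGM, bisphosphoglycerate mutase, rose by 1.04. Of 27 genes of the TCA cycle and pyruvate dehydrogenase, 5 were higher and 5 lower (18.5% each), also near the shares of all genes. The pyruvate dehydrogenase kinases went apart, with PDK4 at 6.36 and 6.48 at 24 h, against 4.92 and 5.11 at 6 h, and PDK1 at 6.28 and 6.43 at 24 h, against 7.06 and 7.11 at 6 h. PDK4 was at 7.08 and 7.04 in control cells, above both treated groups. SUCLG2, a subunit of succinyl-CoA ligase, fell by 1.39. In fatty acid oxidation, 7 of 24 genes were higher and 6 lower, with CPT2 at 0.86 and ACSL4 at −1.15. The other probe set of ACSL4 was dim and at −0.03 without passing. Of 22 cholesterol synthesis genes, 3 were higher and 10 lower, with HMGCS1 at −0.75. A second probe set of HMGCS1 was at −0.1 without passing.

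The study followed 9 genes by qRT-PCR that were also measured here. It chose them on these samples, so that their count is not independent evidence. Glycolytic enzymes that the study measured as proteins, and p53, are not in this count. Of the 9, 1 was higher and 5 lower at 24 h than at 6 h. ENDOG, a mitochondrial nuclease, was at 8.78 and 8.70 at 24 h, against 7.39 and 7.45 at 6 h (difference 1.33, standard error 0.08). Besides HK2, OPA1 and PDK1, HIF1A, a transcription factor of the hypoxia response, fell by 0.61 in its brightest probe set. PRKAG2, a subunit of AMP-activated kinase, fell by 0.39. All 8 probe sets of HIF1A had the same sign, and the dimmer ones fell by 1.12 to 1.66. Those at −1.18 and −1.12 did not pass (adjusted p = 0.106 and 0.0732 over all probe sets). Their 24 h replicates lay apart, as in the set at −1.48, with 8.46 and 7.34. RRM2B, a ribonucleotide reductase subunit, was at 7.01 and 6.96 at 24 h and at 6.93 and 7.01 at 6 h, and BIK, a proapoptotic gene, at 7.94 and 7.97 at 24 h and at 7.96 and 8.04 at 6 h. Neither passed the test (adjusted p = 0.915 for RRM2B and 0.731 for BIK), and RRM2B was at −0.30 with hybridization scaling and −0.66 with poly-A scaling. The other 8 probe sets of RRM2B, all dimmer, had positive differences, and 4 of them passed as higher, at 0.74, 0.66, 0.53 and 0.52. ACMSD, an enzyme of tryptophan breakdown, was at −0.25 (adjusted p = 0.115).

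Targets of p53 did not move as a group between the times. Of 33, 8 were higher (24.2%) and 6 lower (18.2%), near the 21.2% and 16.7% of all genes. Their median was 0.01, against 0.07 over all genes. TP53I3 was at 8.54 and 8.59 at 24 h, against 7.31 and 7.22 at 6 h, TP53INP1 rose by 1.08, and XPC, the damage sensor of nucleotide excision repair, by 0.86. GDF15 and TNFRSF10B, a receptor of the death ligand TRAIL, were lower, TNFRSF10B by 0.74 in 1 of its 3 probe sets, the others being at 0.21 and 0.23 without passing. PMAIP1, the brightest of the group, was at 0.35 (adjusted p = 0.0838). Of 15 death receptors and adaptors, 2 were higher and 5 lower. TNFSF10, the gene of TRAIL itself, was at 8.08 and 8.03 at 24 h, against 9.56 and 9.59 at 6 h and 11.39 and 11.47 in control cells. TNFRSF21 fell by 1.03 and the survival gene BCL2L1 by 0.77, with another probe set of BCL2L1 passing as higher, at 0.32. Shares of repair genes lay near the 21.2% higher and 16.7% lower of all genes. In nucleotide excision repair, 5 of 22 were higher (22.7%) and 3 lower (13.6%). For homologous recombination and the Fanconi pathway, 7 of 26 were higher (26.9%) and 4 lower (15.4%). In their brightest probe sets, GTF2H3, a subunit of TFIIH, fell by 0.98 and NBN, a sensor of double-strand breaks, by 0.90. The translesion polymerase gene POLK fell by 0.73, also in its brightest probe set, while the checkpoint clamp gene HUS1 rose by 0.71. The other probe set of GTF2H3 was at −0.23 without passing, and no other probe set of POLK passed. Another probe set of NBN passed as lower, while those at −0.21, −0.09 and −0.06 did not pass. For HUS1, another passed as higher, at 0.65, and the last was at 0.12 without passing.

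Ligands by which immune cells recognise damaged cells, and interferon-stimulated genes, were more often higher than lower as deposited. Of 8 ligands of the receptor NKG2D, 5 were higher and none lower, with a median of 0.51 that became −0.16 with poly-A scaling. ULBP2 was at 9.56 and 9.75 at 24 h, against 8.43 and 8.47 at 6 h and 6.17 and 6.06 in control cells. MICB rose by 0.70, with the same sign in its other 3 probe sets, of which 1 passed. Of 34 interferon-stimulated genes, 16 were higher and 3 lower, with a median of 0.23 that became −0.08 with hybridization scaling. IFI6 was at 8.92 and 8.97 at 24 h, against 7.38 and 7.60 at 6 h, and IFIT1 rose by 0.96, while IFIH1, a sensor of double-stranded RNA, fell by 1.05. The other probe set of IFIH1 was dim and at 0.13 without passing. Among 26 cytokines and chemokines, 6 were higher and 2 lower. IL11 was at 8.33 and 8.34 at 24 h, against 6.68 and 6.71 at 6 h, and IL1A rose by 0.68. CXCL8, the brightest cytokine gene, was at 0.16 (adjusted p = 0.243). Of 15 NF-kappaB subunits and inhibitors, 5 were higher and 5 lower, with BCL3 at 0.75 and NFKB1 at −0.91.

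Autophagy and proteasome genes were more often higher than lower as deposited, and antioxidant genes moved in both directions. Of 38 autophagy genes, 20 were higher and 5 lower, with a median of 0.25 that became −0.06 with hybridization scaling. GABARAPL1, which builds the autophagosome, rose by 0.97, whereas the cargo receptor gene SQSTM1 fell by 0.43, its other 4 probe sets having the same sign without passing. Of 37 proteasome subunits, 13 were higher and 3 lower, with a median of 0.12 that became −0.20 with hybridization scaling. Of 30 NRF2 targets and antioxidant enzymes, 11 were higher and 4 lower, with a median of 0.04. GPX3, the secreted glutathione peroxidase made by the proximal tubule, was at 9.54 and 9.26 at 24 h, against 7.73 and 7.86 at 6 h. OSGIN1 rose by 0.93. In contrast, the cystine transporter gene SLC7A11 fell by 0.99 and HMOX1, heme oxygenase 1, by 0.69, and for both the 6 h arrays were the highest of the 3 groups, with control arrays at 7.01 and 7.06 for SLC7A11 and 8.67 and 8.79 for HMOX1. Another probe set of SLC7A11 passed as higher, at 0.56. PRDX1, the brightest member, was at −0.01 (adjusted p = 0.940). Of 10 metallothioneins, which bind metals including platinum, none was higher and 4 were lower, with a median of −0.26. MT1X was at 10.37 and 10.42 at 24 h, against 11.41 and 11.38 at 6 h, while MT2A, near the top of the array's range, was at −0.10 (adjusted p = 0.322). Of 11 cisplatin transporters, 4 were higher and 1 lower, the efflux pump gene ABCC4 (−1.1).

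Growth factor pathways moved in both directions. The epidermal growth factor family ligands EREG and NRG1 fell by 1.29 and 1.35 in their brightest probe sets. EREG was at 9.51 and 9.62 at 24 h, against 10.84 and 10.87 at 6 h, but its other probe sets (−0.08, −0.18 and 0.0) did not pass. For NRG1, others passed as lower at −1.35 and −1.19, and the rest lay between −0.35 and 0.35 without passing. Of 19 genes of the Hippo pathway and the TEADs, 1 was higher and 8 lower, among them the coactivator YAP1 (−0.86), the kinase STK3 (−0.88) and the transcription factor TEAD1 (−0.76). Another probe set of TEAD1 passed as higher, at 0.37, and its call was lost with the mean of its probe sets. In the TGF-beta family, 4 of 24 genes were higher and 7 lower, with TGFB3 at 1.26, BMP4 at 0.97 and BMP2 at −0.74. The Notch target HES1 rose by 0.91 and the receptor gene NOTCH2 fell by 0.67. SPRY2, an inhibitor of receptor tyrosine kinase signalling, fell by 1.02 and the phosphatase gene DUSP8 rose by 1.08. CAB39, a partner of the kinase LKB1, fell by 0.92 in its brightest probe set, while others were at −0.09 and −0.26 without passing.

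The largest changes in adhesion, junction and tubule genes were falls, although not every such group was more often lower. Of 26 immunoglobulin-type adhesion molecules, 9 were higher (34.6%) and 4 lower (15.4%), with a median of 0.16 and differences from −1.97 to 0.64. Of 28 integrins and laminins, 3 were higher and 8 lower. ITGA6 was at 4.60 and 4.41 at 24 h, against 6.12 and 6.12 at 6 h, ITGA3 fell by 1.29 and LAMC1 by 1.22. For ITGA3 the other probe sets were at −0.32 and −0.13 without passing. Of 27 collagens, 1 was higher and 3 lower, and the basement membrane collagen gene COL4A1 fell by 1.13. CLDN1, a tight junction protein, was at 8.93 and 8.75 at 24 h, against 10.55 and 10.56 at 6 h and 11.74 and 11.82 in control cells. Of 23 epithelial and mesenchymal state genes, 6 were higher (26.1%) and 8 lower (34.8%), with a median of −0.07. TJP1 fell by 0.99 and KRT19, a keratin of simple epithelia, by 0.96, while SNAI1, a repressor of epithelial genes, rose by 0.93. A second probe set of TJP1 was at 0.32 without passing. FN1 fell by 0.29 (adjusted p = 0.0198), a call lost without 24 h replicate 2 (0.0710) and without 6 h replicate 1 (0.116) or 2 (0.0717). The potassium channel genes KCNJ16, KCNJ15 and KCNK3 fell by 1.89, 1.62 and 1.46 in their brightest probe sets. Of the 33 potassium channels, however, 7 were higher (21.2%) and 6 lower (18.2%), near the 21.2% and 16.7% of all genes. KCNJ15 was at 4.5 and 4.58 at 24 h, against 6.15 and 6.17 at 6 h and 9.25 and 9.32 in control cells. In a wider list of proximal tubule genes than the 13 markers above, 3 of 28 were higher and 6 lower. The cadherin gene CDH6 was at 5.29 and 5.21 at 24 h, against 6.81 and 6.89 at 6 h, PAX8, a transcription factor of kidney development, fell by 0.84 and ASS1, argininosuccinate synthase, by 0.98, whereas DPP4 was at −0.19 (adjusted p = 0.239). HAVCR1, the gene of a tubular injury marker, was at 4.52 and 4.38 at 24 h and at 5.20 and 5.36 at 6 h (difference −0.83, adjusted p = 0.00218), and SPP1, which encodes osteopontin, was at −0.14 (adjusted p = 0.184).

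Genes at least 2-fold higher at 24 h had shorter spans than those at least 2-fold lower. The span of a gene is its length in the annotation, introns included, and was known for 18179 genes. The median span was 8.14 kb for the 244 genes at least 2-fold higher, 136 kb for the 370 at least 2-fold lower and 25.7 kb over all genes. Among the 20 largest rises the median was 4.19 kb, although PCDH9 spans 928 kb, and among the 20 largest falls it was 261 kb. Among the 1818 genes with the shortest spans 29.0% were higher and 3.41% lower, whereas among the 1818 with the longest spans 7.98% were higher and 32.7% lower. These longest genes included 173 of the 370 genes at least 2-fold lower and 4 of the 244 at least 2-fold higher. Across genes, Spearman's rho between difference and span was −0.323 (n = 18179) and −0.455 among the genes with a log2 signal of at least 5 in at least 2 arrays (n = 10293), given as a description, since genes of an array share its RNA and hybridization. The groups above differed in span as well, with a median of 0.494 kb for histones, 0.134 kb for small nucleolar RNAs and 60.7 kb for nuclear pore genes, and the part of span in their counts was not tested. G2 and M phase genes (28.5 kb) and G1 and S phase genes (20.7 kb) had medians close to that of all genes.

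**Figure D5:**
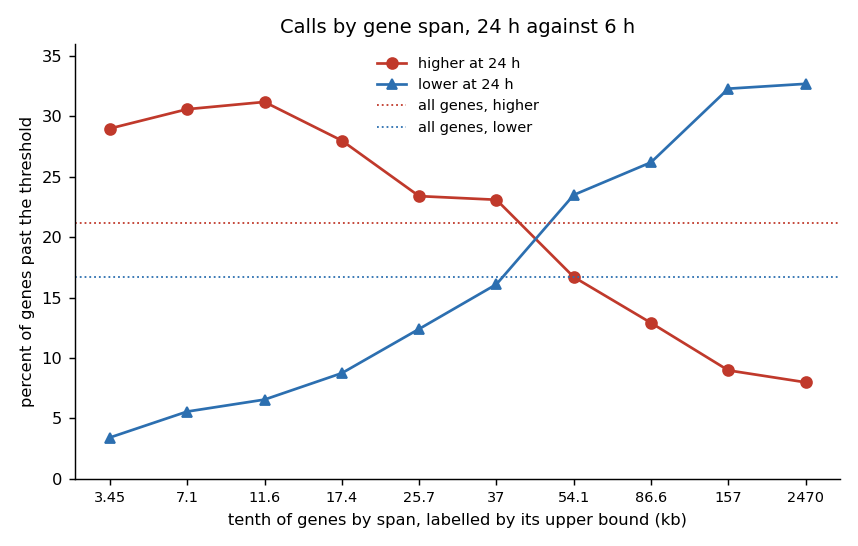
Percent of genes higher (circles) and lower (triangles) at 24 h than at 6 h in 10 classes of 18179 genes by span, labelled by the upper bound of the class in kb. Lower genes make up 32.7% of the class with the longest spans and 3.41% of the shortest, and dotted lines mark the shares of all genes.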

How the data were processed

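The deposited values were log2 signals per probe set of Human Genome U219 arrays, which the authors made with Affymetrix Expression Console 1.1 by robust multi-array average (background correction, quantile normalization and a summary per probe set). Quantile normalization gives every array nearly the same distribution, so that a shift common to most genes cannot be seen in these values. Of 49386 probe sets, 45253 were annotated with 1 gene, 1327 with several, 2713 are unnamed here and 93 are controls. Each gene was represented by its brightest probe set on average across the 6 arrays, and other probe sets are given in the text for only some genes. A single model of 3 group means over the 6 arrays (3 residual degrees of freedom) was fitted with limma 3.58.1 (lmFit and eBayes) in R 4.3.3, and p-values of the contrast 24 h minus 6 h, which are two-sided, were adjusted by Benjamini-Hochberg over 18239 genes. The number of arrays limits the precision. Genes named in the text were taken from the 20 largest rises and falls and the 3 largest of each kind in each of 68 gene lists. The member of each list with the highest signal and the 9 genes of the study's qRT-PCR were also in this rule. The rule gave 422 genes, of which the text names only a part, picked with the values known. In addition, 6 genes named with small nucleolar RNAs and their hosts lie outside this rule, as do the genes at the 2-fold limit and those named for opposite probe sets, and were chosen after their values were seen. The members and lists were chosen with earlier results of these data known. Spans, hosts and promoters were taken from RefSeq (GRCh38.p14), and small nucleolar RNAs were matched to hosts by position without strand. Alternatives were a replicate block, the 4 treated arrays alone, averaging the probe sets of each gene, trend and robust moderation, a filter on dim genes, 3 scalings, leaving out each array, the 2-fold rule with p under 0.01 and a test of probe sets. The same-numbered arrays did not deviate together (correlations of −0.0584, −0.0559 and 0.0461). The fit was tested on simulated data.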

Additional observations from a re-analysis of the deposited data

Results flagged for a closer look

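Several control probe sets, which enter no comparison of genes, were brighter at 24 h than in control cells. Hybridization spike-ins were 0.41 and poly-A spike-ins 1.21 log2 units higher, and the difference was 0.80 for nonspecific probes of GC class 22 to 25, 1.15 for the nonspecific probe set of GC class 25, and 0.88 for the 5′ and middle probe sets of ribosomal RNA. Among the probe sets that are unnamed here, 343 of 2713 were higher at 24 h than at 6 h and 312 were lower.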

How the results depend on the processing

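Scaling moved the counts most. Arrays scaled to the hybridization spike-ins gave 1030 higher and 8036 lower genes (91 and 951 at least 2-fold), and those scaled to the poly-A spike-ins gave 196 higher and 14338 lower (24 and 2669 at least 2-fold). All 3048 genes lower in the deposited values remained lower under both, and 1030 and 196 of the 3858 higher genes remained higher. Each scaling lowered the differences of all genes by the same amount, 0.31 and 0.67. Genes already lower could therefore only move further down, and their staying lower is no check of the falls. Genes whose sign turned with poly-A scaling included CDKN1A (−0.15), CKS2 (−0.60), JUN (−0.58), IER3 (−0.47), IPO13 (−0.06), PPP1R15A (−0.01), COX8A (−0.09), RRM2B (−0.66), CXCL8 (−0.51) and RPL12 (−0.57). With hybridization scaling they included RRM2B (−0.30). Any other gene whose rise was smaller than the shift of a scaling turned as well, so that these are not full lists. The cause of the spike-in shifts was not tested. With the mean of all probe sets, 159 genes were at least 2-fold higher and 135 at least 2-fold lower, and FOSL1, KLF3, TNFRSF10B, POLK and TEAD1 lost their calls. Tested by probe set, 6986 were higher and 6005 lower (469 and 843 at least 2-fold), a larger number of features. The 2-fold rule with an unadjusted p under 0.01 called 244 higher and 370 lower. Leaving out 1 array gave 2361 to 3683 higher genes and 2199 to 2925 lower genes, with 237 to 256 at least 2-fold higher and 333 to 420 at least 2-fold lower. The count of higher genes was 2523 without 6 h replicate 1 and 2361 without 6 h replicate 2, and a time left with 1 array is assumed to vary like the others. With the replicate number as a block, 3753 genes were higher and 2936 lower (244 and 370 at least 2-fold), and all 181 genes checked kept their call, although the numbers do not pair the samples. Housekeeping scaling, the 4 treated arrays alone, trend and robust moderation and the filter on dim genes kept each of the 4 counts within 1.5 times, but without dim genes the lower genes (3195) outnumbered the higher (3061).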

Other observations

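Probe sets of the same gene did not always move together. Of 11822 genes with more than 1 probe set, 528 (4.47%) had probe sets that passed the test in both directions, and 3 of them (HSPA8, EIF4E and RPL37A) had a 2-fold rise of 1 probe set and a 2-fold fall of another. For HSPA8, 1 probe set was at 6.32 and 6.47 at 24 h, against 4.17 and 4.04 at 6 h, and another at 10.63 and 10.43 at 24 h, against 12.02 and 12.06 at 6 h. The median span was 56.0 kb for these 528 genes, against 34.4 kb for all genes with more than 1 probe set.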
